A study of Mus musculus with 17 samples.

Results

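The 10 genes described here encode 6 zinc-dependent histone deacetylases (Hdac1, Hdac2, Hdac3, Hdac4, Hdac5 and Hdac7), the NAD-dependent deacetylases Sirt1 and Sirt6, and the paired acetyltransferases Ep300 (p300) and Crebbp (CBP). They were taken by name: every array probe set (row) that the platform annotation assigns to 1 of these symbols was used, which gave 12 of the 21780 rows that carry exactly 1 gene symbol. Hdac1 and Hdac4 had 2 rows each and the other 8 genes had 1. Their levels were measured in 17 single 2-cell embryos, 10 fathered by 3 males injected daily for 6 weeks with PJ34, an inhibitor of poly(ADP-ribose) polymerases, and 7 fathered by 3 saline-injected control males. Sires and untreated dams were wild-type and mated naturally, and the strain is given as 129SVE (=129S6/SvEvTac). The drug was thus given to the father only. The PJ34 embryos came from sires MTM11 (4 embryos), MTM13 (4) and MTM14 (2), and the control embryos from sires A (1), B (3) and D (3). Embryos are named by sire and number. In the labels the fathers of the control embryos appear once as saline treated and once as untreated. No source used here gives the ages of the mice. The question was whether the levels of these enzymes in the embryo differed with the treatment of the father.

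Acetylation of lysines in histone tails loosens the contact between histone and DNA and recruits bromodomain proteins, and deacetylation reverses it. Ep300 and Crebbp are large, closely related transcriptional coactivators that acetylate several histones and many transcription factors. Hdac1 and Hdac2 are the catalytic subunits of the Sin3, NuRD and CoREST corepressor complexes, and Hdac3 is that of the NCoR/SMRT complex. The class IIa enzymes Hdac4, Hdac5 and Hdac7 shuttle between nucleus and cytoplasm, bind Mef2 factors and have little catalytic activity of their own on acetyl-lysine. Sirtuins consume NAD, as do the polymerases that PJ34 inhibits. At the 2-cell stage, when the mouse embryo degrades maternal RNA and starts its main wave of transcription, a transcript can be maternal or embryonic, and these arrays cannot tell the sources apart.

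Values are log2 RMA intensities (robust multichip average, a normalized array signal), so that a difference of 1 is a doubling or halving. Array medians lay between 6.12 and 6.23 in the 17 embryos. As a mark of the lower end of the signal range, the 95th percentile of 1035 olfactory receptor rows was taken. It was 6.25, and 50.2% of the 21780 rows lay above it. The median of the olfactory rows was 4.51. The paper names olfactory receptors among the genes raised in embryos of its treated or mutant fathers, so the mark is not a known level of absent transcript. Of 13 rows of oocyte and 2-cell markers, 12 lay above this mark, the exception being Mos. Of 8 cumulus cell marker rows, 1 (Amhr2) lay above it, of 6 rows for oviduct and blood 1 (Slc4a1), and of 6 rows for sperm and spermatids 2 (Prm1 and Prm2). The mean level of the cumulus list ran from 5.29 to 5.52 in PJ34 embryos and from 5.29 to 5.51 in control embryos, and that of the oviduct and blood list from 5.34 to 5.68 in PJ34 embryos and from 5.32 to 5.54 in control embryos. Between the groups 0 of these marker rows passed an adjusted p of 0.1 in limma. An unadjusted p below 0.05, which 5.89% of all rows had, was reached by 3 of the 13 oocyte and 2-cell rows (Bmp15 at 0.29, 1 of 2 rows of Dppa4 at -0.60 and 1 of 2 rows of Dppa2 at -0.21, log2 differences of PJ34 minus control), 1 of the 8 cumulus rows, 1 of the 6 oviduct and blood rows and 1 of the 6 sperm rows, and their part in the results was not tested.

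The 10 genes fell into 3 levels of array signal. Crebbp, Ep300, Hdac1 and Sirt1 were bright, with means over all embryos between 10.97 and 11.42, above at least 96.3% of rows. Hdac2 lay below them at 9.27, above 88.8% of rows. The class IIa rows of Hdac7, Hdac4 and Hdac5 lay between 6.61 and 6.89, little above the olfactory mark, while Sirt6 at 6.19 and Hdac3 at 5.23 lay below it. Probe sets respond with different strength to the same amount of RNA, so that this is an order of signal and not of transcript amount, and a row below the mark does not show that its transcript was missing.

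Within the bright level neighbouring rows were close. Crebbp exceeded Ep300 in 11 of 17 embryos, with a mean difference of 0.094 against an SD of 0.30 between embryos, and Sirt1 exceeded row 1 of Hdac1 (probe set 10447004) in 9 of 17. Ep300 exceeded row 2 of Hdac1 (probe set 10516605) in 14 of 17 embryos, and that row exceeded Sirt1 in 13. The steps between levels were kept by nearly every embryo, as row 1 of Hdac1 exceeded Hdac2 in 16 of 17 and Hdac2 exceeded Hdac7 in 17 of 17. Within the dim level, row 1 of Hdac4 exceeded Sirt6 in 16 of 17 and Sirt6 exceeded Hdac3 in 17 of 17. Among the class IIa rows the order was again loose, with Hdac7 above row 2 of Hdac4 (probe set 10356628) in 12 of 17 embryos, that row above Hdac5 in 11, and Hdac5 above row 1 of Hdac4 (probe set 10356626) in 15.

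**Figure D1:**
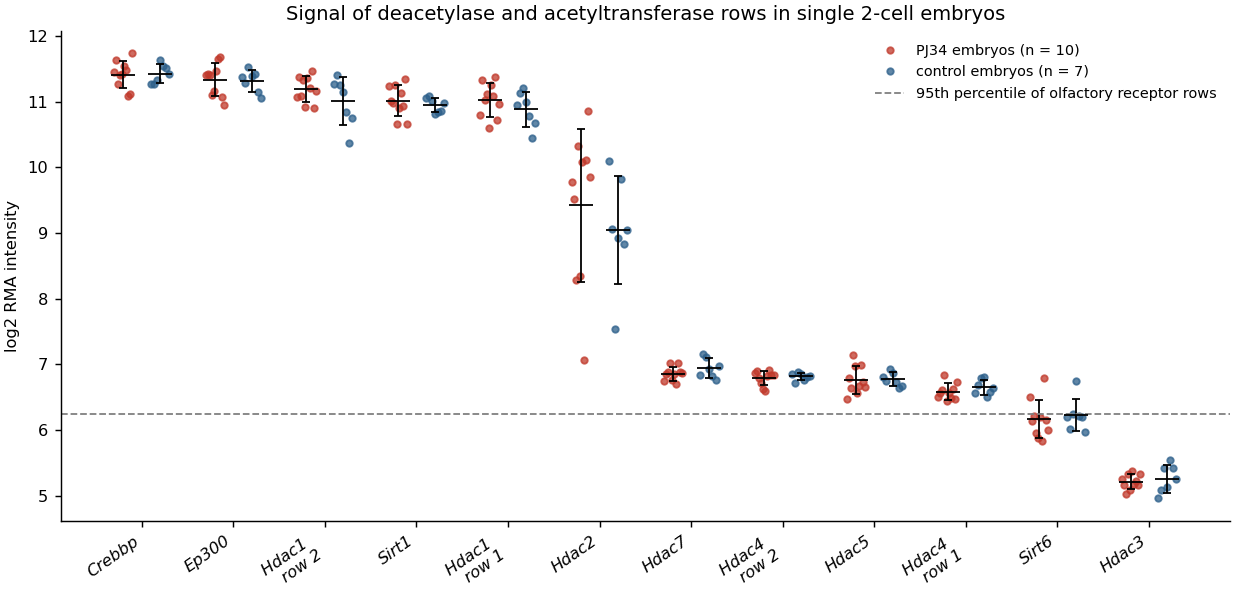
Log2 RMA intensity of the 12 rows in single 2-cell embryos, ordered from bright to dim. Points are embryos (PJ34 left, control right of each tick), black marks are means with SD, and the dashed line at 6.25 is the 95th percentile of olfactory receptor rows. Hdac2 spreads over several log2 units in both groups, and PJ34 and control values overlap in every row.

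Promoter sequence was looked at as a feature the choice of genes did not use. RefSeq promoter windows (GRCm38.p6) were at hand for 8 of the 10 genes, all but Hdac1 and Hdac3. These were 12 windows, of which the 250 bases before the start were read. Only those of Sirt1 and Hdac5 and 1 of the 4 of Hdac7 lay wholly outside the annotated gene. The others overlapped it, so their counts can include transcribed sequence. The 12 windows held a median of 22 CpG dinucleotides, against 6 over 32851 windows of the same kind, and a GC content of 63.6% against 52.4%. Of the bright genes, Crebbp had 44 CpG, Sirt1 39 and Ep300 25, with Hdac1 not covered, and Hdac2 had 27. The dim genes other than Hdac3 had 23 (Hdac4), 12 (Hdac5), 20 and 13 (both windows of Sirt6), and 25, 21, 6 and 5 (the 4 windows of Hdac7). A GC box (GGGCGG on either strand, overlapping matches counted) occurred in 8 of the 12 windows and in 32.7% of all windows, a CCAAT box (CCAAT on either strand) in 2 of 12 and in 33.8%, and a TATA box (TATAAA on either strand) in 0 of 12 and in 12.4%. These are matches of letters and no measure of binding. The windows of Sirt1 and Hdac5 are shown because they belong to a bright and a dim gene with 1 listed start each and lie wholly outside the annotated gene, with GC and CCAAT boxes in capitals. Both genes lie on the minus strand, Sirt1 at chr10:63339036-63339285 and Hdac5 at chr11:102230173-102230422. The Sirt1 window held 6 GC boxes and 0 CCAAT boxes, and the Hdac5 window 1 GC box and 2 CCAAT boxes.
Sirt1: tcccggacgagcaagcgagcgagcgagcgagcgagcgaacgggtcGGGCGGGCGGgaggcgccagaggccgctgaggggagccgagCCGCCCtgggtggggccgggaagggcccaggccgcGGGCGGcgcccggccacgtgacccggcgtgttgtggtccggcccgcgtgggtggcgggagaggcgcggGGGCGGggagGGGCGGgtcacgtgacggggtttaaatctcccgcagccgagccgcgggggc
Hdac5: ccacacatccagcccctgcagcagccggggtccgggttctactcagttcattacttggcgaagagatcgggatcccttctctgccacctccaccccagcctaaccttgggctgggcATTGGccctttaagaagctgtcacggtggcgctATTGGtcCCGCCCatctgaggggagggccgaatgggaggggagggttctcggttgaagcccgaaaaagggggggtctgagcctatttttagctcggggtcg

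Hdac2 was the most variable of the 12 rows. Its lowest, median and highest log2 values were 7.07, 9.81 and 10.85 in PJ34 embryos and 7.54, 9.05 and 10.10 in control embryos, and the span over all embryos was 13.8-fold. The embryos of sire MTM13 alone covered most of that span. They had 8.35, 10.09, 7.07 and 10.11, those of MTM11 had 9.77, 9.52, 8.28 and 10.33, and those of MTM14 had 10.85 and 9.85. Among controls, sire A's embryo had 10.10, those of sire B had 9.06, 7.54 and 8.93, and those of sire D had 9.82, 8.84 and 9.05. The within-group SD of 1.04 exceeded that of 95.7% of the rows above the olfactory mark, whose median was 0.31. In the other 11 rows the SD within groups ran from 0.094 (row 2 of Hdac4) to 0.28 (Sirt6). Hdac1, which can stand in for Hdac2 in the same complexes, had SDs of 0.26 and 0.28 in its 2 rows.

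No difference between PJ34 and control embryos passed the test in any of the 12 rows. With limma over all 21780 rows, 0 of the 12 passed an adjusted p of 0.1 and 0 had an unadjusted p below 0.05, where 0% and 5.89% of all rows did. Their adjusted p ran from 0.904 to 0.995. A one-way analysis of variance of all PJ34 against all control embryos also called 0 of them. The methods name this kind of test, but the study listed genes from single embryos set against the controls, as is done further below. The values of PJ34 and control embryos overlapped in 12 of 12 rows, and they failed to overlap in 0.0138% of all rows. Of the 12 differences 7 were negative, with a median of -0.011, and 56.4% of all rows were negative, with a median of -0.016. Several embryos share a sire, so that these p-values measure the spread between embryos and not between treated fathers.

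Among class I enzymes, row 1 of Hdac1 had 10.60, 11.06 and 11.37 (lowest, median and highest) in PJ34 embryos and 10.45, 10.96 and 11.22 in control embryos, a difference of 0.14 (95% interval -0.13 to 0.40, adjusted p = 0.92). Row 2 had 10.91, 11.19 and 11.47 in PJ34 embryos and 10.37, 11.15 and 11.40 in control embryos, a difference of 0.18 (-0.10 to 0.46, adjusted p = 0.904), with 8 of 10 PJ34 embryos above the control mean. The low control values came from sire D, whose embryos had 10.85, 10.37 and 10.76 in row 2, and without that sire the differences were -0.049 and -0.082. Hdac2 averaged 9.42 ± 1.16 in PJ34 embryos (SD, n = 10) and 9.05 ± 0.82 in control embryos (n = 7), and its interval of -0.65 to 1.39 left room for levels 1.57-fold lower to 2.63-fold higher in PJ34 embryos. Its difference of 0.37 was 0.12 without control B-2, 0.63 without MTM13-3 and -0.030 without sire B. Hdac3, below the olfactory mark, averaged 5.22 ± 0.11 in PJ34 embryos and 5.26 ± 0.21 in control embryos.

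The class IIa rows had differences close to 0. Row 1 of Hdac4 had 6.45, 6.56 and 6.85 in PJ34 embryos and 6.50, 6.65 and 6.80 in control embryos, and row 2 had 6.60, 6.83 and 6.91 in PJ34 embryos and 6.71, 6.83 and 6.89 in control embryos. Hdac5 averaged 6.77 ± 0.21 in PJ34 embryos and 6.77 ± 0.11 in control embryos. Hdac7, an enzyme best known from blood vessels and developing T cells, averaged 6.86 ± 0.11 in PJ34 embryos and 6.94 ± 0.15 in control embryos, with 8 of 10 PJ34 embryos below the control mean and an adjusted p of 0.904. For these 4 rows the log2 differences were -0.066, -0.025, -0.0067 and -0.086.

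Sirt1, which deacetylates histones and p53 among other proteins, had 10.66, 10.99 and 11.34 in PJ34 embryos and 10.82, 10.98 and 11.09 in control embryos, a difference of 0.062 (95% interval -0.14 to 0.26). Without single embryos this ran from 0.025 (without MTM14-1) to 0.10 (without MTM14-2), and it was -0.0098 without sire MTM11. Sirt6, which acts at telomeres and in DNA repair, averaged 6.17 ± 0.29 in PJ34 embryos (range 5.83 to 6.80) and 6.23 ± 0.25 in control embryos (range 5.98 to 6.74). Its difference of -0.060 (-0.34 to 0.22) was 0.026 without control B-3, the highest control embryo, and -0.13 without MTM13-4, the highest PJ34 embryo. The sign of the Sirt6 difference thus turned with 1 embryo.

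The acetyltransferases were the brightest and among the closest between groups. Ep300 had 10.95, 11.41 and 11.69 in PJ34 embryos and 11.06, 11.38 and 11.53 in control embryos, a difference of 0.012 (95% interval -0.21 to 0.24). Crebbp had 11.08, 11.43 and 11.74 in PJ34 embryos and 11.27, 11.43 and 11.64 in control embryos, a difference of -0.015 (-0.21 to 0.18). For the 11 rows other than Hdac2 the farthest bound of any interval was 0.46, that of row 2 of Hdac1, which corresponds to 1.37-fold.

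**Figure D2:**
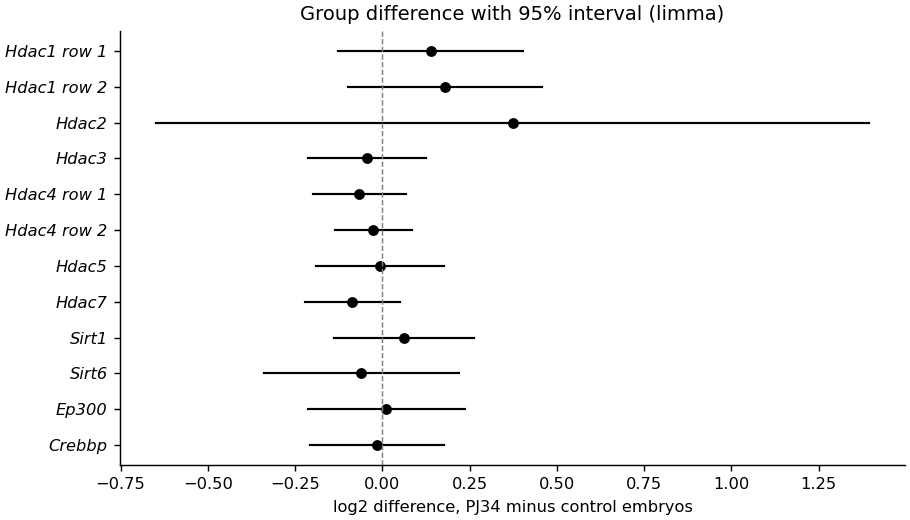
Log2 difference of each row, PJ34 minus control embryos (n = 10 and 7), with its 95% interval from limma. All 12 intervals include 0, and that of Hdac2, from -0.65 to 1.39, is the widest.

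The spread between embryos was compared next. The SD was larger in PJ34 than in control embryos in 8 of 12 rows, as it was in 53.6% of all rows. The ratio of the SDs was highest for Sirt1 (SD 0.24 in PJ34 and 0.11 in control embryos), Hdac5 (0.21 in PJ34 and 0.11 in control embryos) and row 2 of Hdac4 (0.11 in PJ34 and 0.058 in control embryos). It was lowest for Hdac3 (0.11 in PJ34 and 0.21 in control embryos) and row 2 of Hdac1 (0.20 in PJ34 and 0.37 in control embryos). With limma on absolute deviations from the group mean, 0 of 12 rows passed an adjusted p of 0.1 (lowest 0.541), where 0.0275% of all rows did. Without adjustment 2 rows, row 2 of Hdac1 and Hdac3, had a p below 0.05, both with the smaller spread in PJ34 embryos, where 8.69% of all rows reached it. The spread difference of row 2 of Hdac1, -0.15, was -0.059 without control D-2 and 0.0094 with deviations taken from the sire mean, where that of Hdac3, -0.093, was -0.040. Missing the threshold does not show that the spread was equal.

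Differences between the PJ34 sires were tested with a moderated F test. Of the 12 rows 0 passed an adjusted p of 0.1, where 0.0138% of all rows did, and 1 had an unadjusted p below 0.05, where 4.91% did. This row was Ep300, with an unadjusted p of 0.0239 and an adjusted p of 0.988 by limma. The embryos of MTM14 had 11.07 and 10.95, those of MTM13 had 11.16, 11.48, 11.65 and 11.69, and those of MTM11 had 11.41, 11.42, 11.41 and 11.10. Against the 7 control embryos, MTM14 differed by -0.31 (SE 0.14), MTM13 by 0.17 (SE 0.11) and MTM11 by 0.012 (SE 0.11). Both MTM14 embryos thus lay at the low end of the range, where control D-3 lay too, at 11.06. Hdac2 had sire means of 10.35 in MTM14, 8.90 in MTM13 and 9.47 in MTM11, with differences from control of 1.30 (SE 0.76), -0.14 (SE 0.60) and 0.43 (SE 0.60). The 3 sires set singly against the controls gave 0 calls among the 12 rows, where MTM11 gave 0.00459% of all rows, MTM13 0% and MTM14 0.0551%. At an unadjusted p below 0.05 they gave 0, 0 and 1 of the 12 rows, where 5.25%, 4.96% and 5.53% of all rows reached it.

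**Figure D3:**
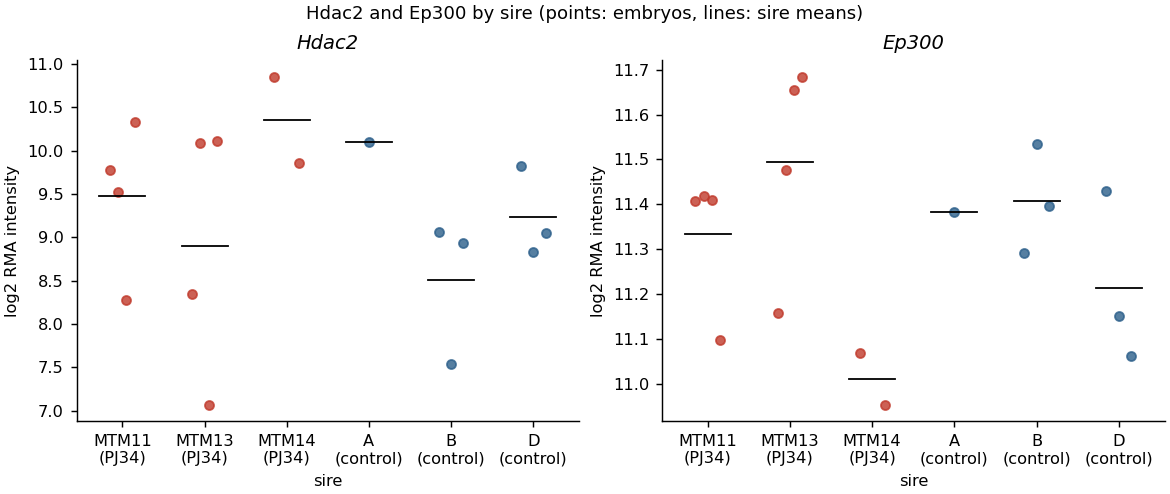
Log2 RMA intensity of Hdac2 (left) and Ep300 (right) in embryos of each sire, PJ34 sires first. Points are embryos and lines are sire means. The Hdac2 embryos of MTM13 run from 7.07 to 10.11, and the Ep300 values of MTM14, 11.07 and 10.95, are near the lowest of all embryos.

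Since the study called genes in single embryos, each PJ34 embryo was also set against the 7 control embryos. In 120 such tests of the 12 rows 0 passed an adjusted p of 0.1, where 0.581% of all tests did. At an unadjusted p below 0.05 there were 4 of 120, or 3.33%, against 6.21% over all rows. They were Hdac2 in MTM13-3 (log2 difference -1.98) and in MTM14-1 (1.80), Sirt1 in MTM14-1 (0.39) and Hdac5 in MTM11-4 (0.38). The same 12 rows in control embryos, each set against the other 6, gave 0 of 84 at an adjusted p of 0.1, where 0.397% of all tests passed, and 4 of 84 at an unadjusted p below 0.05, or 4.76%, against 5.7% over all rows. Those were Hdac2 in control B-2 (-1.76), Sirt6 in control B-3 (0.60) and both rows of Hdac1 in control D-2 (-0.51 and -0.74). Wide swings of Hdac2 were thus met in single embryos of both groups.

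Hdac2 has 1 row, so its swings could not be checked in another probe set. For the genes with 2 rows, both rows were read from the same amplified RNA on the same array. Agreement between them thus cannot tell differences between embryos from those of amplification or array. What the rows could show was whether differences between arrays repeat in another probe set. For Hdac1 they did: over 17 embryos the rows correlated with r = 0.918 and rho = 0.912 (permutation test, p = 1e-05 each, the smallest that 100000 resamples can give, and 2e-05 adjusted over the 2 genes). The correlation was 0.958 within PJ34 embryos, 0.951 within control embryos and 0.909 without the 2 embryos farthest from the median. The annotation gives both rows the same transcripts, and the gene table lists a pseudogene, Hdac1-ps. For each row it is thus uncertain whether it measures Hdac1, the copy or both. For Hdac4 they did not: r was 0.148 and rho 0.108 (permutation p = 0.573 and 0.678, which are also the adjusted values), with 0.0276 within PJ34 embryos, 0.397 within control embryos and 0.283 without the 2 farthest. The Hdac4 rows had the 2 smallest SDs of the 12, 0.12 and 0.094.

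Co-variation between genes was weak. Over the 45 pairs of genes (rows of a gene averaged) Pearson r ran from -0.508 to 0.586, with a median of 0.0411, 29 pairs positive and 16 negative. No pair passed an adjusted p of 0.1 by either coefficient (lowest 0.484 for r and 0.167 for rho, permutation test with 100000 resamples, two-sided), and 3 pairs had an unadjusted p below 0.05 by either. The sign was the same within PJ34 and within control embryos for 20 of 45 pairs. The counts of pairs have no background of other genes here. The 4 pairs with the lowest p are given here, none of which passed. For these, the share of all rows with an r at least as large in size gave a background. For Hdac4 and Hdac7 it was 3.329% with Hdac4 and 6.364% with Hdac7. For Hdac5 and Hdac7 it was 11.41% with Hdac5 and 16.97% with Hdac7. For Hdac1 and Ep300 it was 3.655% with Hdac1 and 1.832% with Ep300. For Sirt1 and Crebbp it was 2.847% with Sirt1 and 2.86% with Crebbp.

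Hdac4 and Hdac7, both class IIa, had r = 0.586 (permutation p = 0.014, adjusted 0.484) and rho = 0.681 (p = 0.0037, adjusted 0.167). The value was 0.631 within PJ34 embryos and 0.471 within control embryos, 0.422 without the 2 embryos farthest from the median, and 0.311 with arrays centred on their medians. For Hdac4 these use the average of 2 rows that had r = 0.148 with each other, and the rows were not tested apart. Hdac5 and Hdac7 had r = 0.468 (permutation p = 0.0581, adjusted 0.484), rho = 0.478 (p = 0.0545, adjusted 0.505), 0.608 within PJ34 embryos, 0.428 within control embryos, 0.32 without the 2 farthest and 0.261 with centred arrays. For both pairs r was lower after centring on the array medians, and the part of these medians in the correlation was not tested. Hdac1 and Ep300 had r = 0.547 (permutation p = 0.024, adjusted 0.484) and rho = 0.591 (p = 0.0148, adjusted 0.332), with 0.559 within PJ34 embryos, 0.676 within control embryos, 0.459 without the 2 farthest and 0.508 with centred arrays.

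Sirt1 and Crebbp had r = -0.508 (permutation p = 0.0381, adjusted 0.484) and rho = -0.542 (p = 0.0273, adjusted 0.409), and -0.201 without the 2 embryos farthest from the median, MTM14-1 and MTM14-2. Within the 10 PJ34 embryos r was -0.414 (permutation test, adjusted p = 0.742), and within the 7 control embryos it was -0.979, with an adjusted p of 0.0268 over the 45 pairs by an exact permutation test. The control values of Sirt1 covered only 10.82 to 11.09 and those of Crebbp 11.27 to 11.64. The test treats the 7 embryos as exchangeable, although 3 came from sire B and 3 from sire D, and whether the correlations of the 2 groups differ was not tested. Among paralogues r was -0.191 for Ep300 and Crebbp (permutation p = 0.461) and 0.0723 for Hdac1 and Hdac2 (p = 0.785), adjusted p = 0.971 each. It was 0.331 for Hdac4 and Hdac5 (permutation p = 0.197, adjusted 0.752) and -0.0375 for Sirt1 and Sirt6 (p = 0.887, adjusted 0.971).

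**Figure D4:**
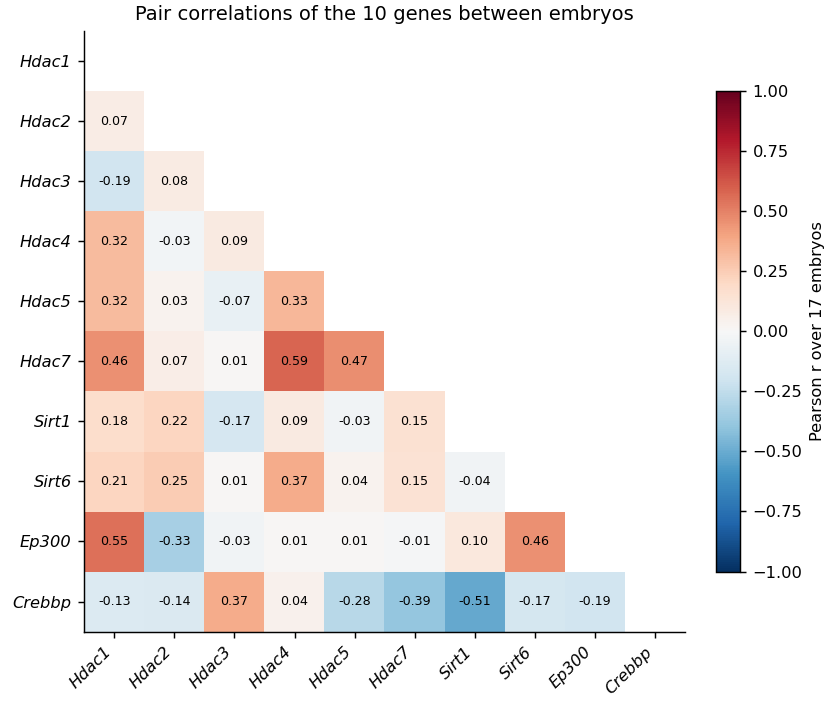
Pearson r of each pair of the 10 genes over 17 embryos (colour and printed value, rows of a gene averaged). Values run from -0.51 for Sirt1 and Crebbp to 0.59 for Hdac4 and Hdac7, with 0 of 45 pairs past the adjusted threshold.

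**Figure D5:**
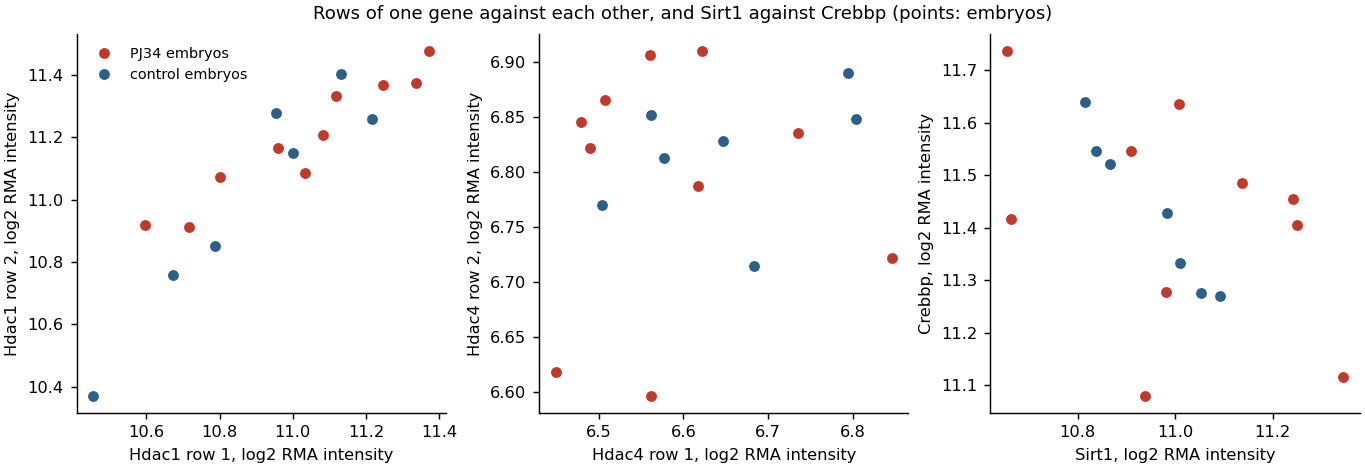
Log2 RMA intensities of embryos (points) for both rows of Hdac1 (left), both rows of Hdac4 (middle) and Crebbp against Sirt1 (right). The Hdac1 rows lie near a line (r = 0.918), the Hdac4 rows do not (r = 0.148), and the 7 control embryos fall along a descending line for Sirt1 and Crebbp, with r = -0.414 in PJ34 and -0.979 in control embryos.

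For the 3 genes with the largest SD, the row of another gene with the most similar pattern was looked up among at least 10936 rows above the olfactory mark. It was Pomp, a proteasome assembly factor, for Hdac2 (Pearson r = 0.823 over 17 embryos, 0.89 within PJ34 and 0.755 within control embryos). It was Gm4780 for Sirt6 (0.763, with 0.953 within PJ34 and 0.42 within control embryos), and for Hdac1 it was Pdlim7 for row 1 (0.804, with 0.803 within PJ34 and 0.842 within control embryos). For row 2 it was Rbm10, an RNA-binding splicing regulator (0.784, with 0.35 within PJ34 and 0.921 within control embryos). Each was picked as the highest of many, so these values are a description only.

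The wider acetylation machinery was followed in 8 lists with 68 measured genes of 72 listed and 74 rows. In limma 0 rows passed an adjusted p of 0.1, and at an unadjusted p below 0.05 there were 5 higher and 1 lower in PJ34 embryos, where 1.96% and 3.93% of all rows were. The median difference of the 74 rows was 0.024. Of the 25 rows of corepressor subunits 2 reached an unadjusted p below 0.05: Gps2, a subunit of the Hdac3 complex, averaged 8.27 ± 0.64 in PJ34 embryos and 7.56 ± 0.57 in control embryos, and Kdm1a, the demethylase of CoREST, 8.72 ± 0.41 in PJ34 embryos and 8.22 ± 0.46 in control embryos. The other 2 named for this list were the NuRD subunit Mta2 (difference -0.16) and Brms1 (-0.40). Of 5 rows of acetyl-lysine readers, the bromodomain genes Brdt and Brd2 had higher values by 0.27 and 0.19 at that level, Brd9 differed by -0.41 and Brd7 by -0.078. Of 12 rows of class IIa partners, the 14-3-3 gene Ywhag differed by 0.41 at that level, 1 row of Mef2d by 0.20 and its other row by -0.12, Ywhaq by -0.15, and the 2 rows of Ywhah by -0.27 and -0.20. Of 10 rows of NAD synthesis and sirtuin regulators, Nmnat2 differed by -0.18 at that level, and Nampt, the rate-limiting enzyme of NAD salvage, by -0.65, with 8.14 ± 1.08 in PJ34 embryos and 8.79 ± 0.65 in control embryos (unadjusted p = 0.154, limma). Nadsyn1 differed by 0.078 and Nmrk1 by 0.041.

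In the remaining 4 lists no row reached an unadjusted p below 0.05. Of 5 rows of other zinc deacetylases, Hdac10 differed by 0.10, Hdac6 by 0.14, Hdac8 by -0.17 and Hdac9 by -0.0096. Of 5 rows of other sirtuins, Sirt2 differed by 0.21, Sirt3 by 0.026, Sirt4 by -0.10 and Sirt5 by -0.038. Among other acetyltransferases 8 of 9 rows were negative, where 56.4% of all rows were, and their median was -0.092. Hat1 was at -0.40, Kat2a at -0.092 and Kat6a, the exception, at 0.13. Of the genes that supply acetyl-CoA, Acly differed by 0.12, Slc25a1 by -0.081 and Acss2 by -0.061.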

How the data were processed

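RNA of single 2-cell embryos was amplified (WT-Ovation One-Direct kit) before hybridization to Affymetrix Mouse Gene 1.0 ST arrays. Deposited values are log2 intensities that the authors computed by RMA in Partek Genomics Suite: background correction, quantile normalization, log2 transformation and summarization per probe set. The sources used here name no version or genome build. The values of 28815 rows were used as deposited. Rows were named through the platform annotation, with symbols updated by gene ID (GRCm38.p6, names only; 21689 of 21780 rows matched), and 0 rows with several symbols held a member. Arrays have no read depth, and the number of arrays limits the precision.

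Groups and sires came from the labels. Differences (PJ34 minus control) were tested with limma 3.58.1 in R 4.3.3, moderated and two-sided, with Benjamini-Hochberg adjustment over all 21780 rows and the study's threshold of 0.1. Absolute deviations (scaled for group size), sires and single embryos (residual spread from the controls alone) were tested in the same way, and the steps were checked on simulated data. Pair correlations used permutation tests (100000 resamples, or all 5040 orders for 7 control embryos) in Python 3.11.15. Adjusted values for pairs cover the 45 pairs. Promoter windows came from RefSeq.

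All rows of the 10 genes are named, in each other list the 2 rows with the smallest p in each direction, the 4 pairs with the lowest p, the pairs of paralogues, and the most similar row for the 3 genes with the largest SD. The members and lists were chosen with earlier results of these data known. Alternatives covered sire as a block, sire means, array centring, rows tested, the filter on dim rows, averaged rows, an intensity trend, analysis of variance, and leaving out embryos or sires.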

Additional observations from a re-analysis of the deposited data

Results flagged for a closer look

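In 24 groups of values (12 rows in PJ34 and in control embryos) the gap of the highest or lowest embryo to its nearest neighbour was compared with Dixon's 95% critical value, which chance passes in about 1 of 20 groups. It was passed once. Sirt6 stood at 6.74 in control B-3, and the next control embryo was at 6.24, a gap of 0.65 of the control range. The highest PJ34 embryo, MTM13-4 at 6.80, was close to that value, and the Sirt6 row as a whole lay below the olfactory mark of 6.25.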

How the results depend on the processing

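No member row was called in any alternative of the group, spread, sire or single-embryo tests. Over all rows, the group comparison called 0, but 2 with the sire as a random block (estimated sire correlation -0.04), 2 among rows above the olfactory mark (where Hdac3 and Sirt6 were not tested), 1 with rows of a gene averaged, 2 without sire A, 1 without sire MTM14, and 0 to 2 without single embryos. The spread test called 6, but 0 with deviations from the median, 13 from the sire mean, 37 with centred arrays and 7 to 42 without single embryos. The F test called 3 of the rows with 1 symbol, but 5 when rows with several symbols or none were tested too, and 0 to 110 without single embryos. The single-embryo tests called 1265 in all and 0 when the spread came from all embryos within sires. The causes were not tested. Differences of several rows changed sign, among them those of Hdac2 and Hdac1, the largest of all member rows. On sire means Hdac3, Ep300 and Crebbp were at 0.028, -0.056 and 0.021, and with centred arrays Hdac5 was at 0.00177. Without sire A Hdac5 was at 0.000248. Without sire B Hdac2 was at -0.030, row 1 of Hdac4 at 0.014, Hdac5 at 0.050, Hdac7 at 0.0069 and Sirt6 at 0.022. Without sire D the rows of Hdac1 were at -0.049 and -0.082, Hdac3 at 0.064, Ep300 at -0.068 and Crebbp at 0.036. Without MTM11 Sirt1 was at -0.0098, without MTM13 row 2 of Hdac4, Ep300 and Crebbp at 0.011, -0.096 and 0.00662, and without MTM14 Hdac5 at 0.011. Without single embryos Hdac3 ran from -0.095 to 0.0025, Hdac5 from -0.049 to 0.026, Sirt6 from -0.13 to 0.026, Ep300 from -0.032 to 0.054, Crebbp from -0.051 to 0.022, Sirt1 from 0.025 to 0.10, Ep300 in sire MTM11 from -0.031 to 0.091 and Hdac2 in sire MTM13 from -0.55 to 0.47. The spread difference of row 1 of Hdac4 was -0.0042 with deviations from the median, and those of Hdac1 were 0.095 and 0.0094 with deviations from the sire mean. Without single embryos they ran from -0.027 to 0.012 for row 1 of Hdac4 and from -0.046 to 0.047 for row 1 of Hdac1. Among pairs, 1 passed within control embryos only, Sirt1 and Crebbp at -0.979 (adjusted p = 0.0268, exact permutation test), against adjusted p from 0.406 to 0.927 in its other alternatives. Hdac4 and Hdac5 were at -0.0076 with centred arrays, Sirt1 and Sirt6 at 0.142 in PJ34 embryos, Hdac1 and Hdac2 at -0.165 in control embryos and -0.0223 without the 2 farthest embryos, and Ep300 and Crebbp at 0.0337 without them. No paired analysis was possible because embryo numbers count embryos within a sire.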
